A study of Mus musculus with 10 samples.

Results

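Transcripts of 32 genes of cholesterol and fatty acid synthesis were compared across 10 prostate orthograft tumours of the mouse by RNA sequencing. The genes are a list of names set by role, a rule that uses no measured value, although the list was drawn up with earlier results of these data known. It holds 17 enzymes of the mevalonate and sterol pathway, 8 fatty acid genes, 4 genes of the sterol-sensing regulatory system and 3 genes of sterol transport. The fatty acid genes encode enzymes of fatty acid synthesis and modification, except Lpin1, which is of glycerolipid synthesis and is counted with them. Each of the 32 symbols matched 1 of the 47069 gene IDs listed, and all 32 passed the filter on low counts. The 32 do not make up either pathway in full: further genes of both were counted from separate lists, and others were not analysed here.

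The tumours grew from 3 mouse prostate cancer lines, injected into an anterior prostate lobe of male CD-1 Nude mice, hosts that lack a normal thymus. CP1 (3 tumours) and CP2 (4 tumours) are lines from prostate tumours with the allele Ctnnb1pc(ex3)Δ/+, a deletion of exon 3 that stabilises beta-catenin, taken from donors aged 6 and 8 months. P1 (3 tumours) is a line from a prostate tumour without this allele, taken from a donor aged 14 months. Each group is 1 cell line, and P1 differs from the CP lines in genotype outside this allele too. Line, genotype and donor age cannot be told apart, and what drives the recombination is not stated in the labels. The labels do not tie libraries to animals, so p-values measure the spread between these samples, which may be partly technical. CP2 replicate 1 carries CP1 in its title and CP2 in its tissue and source labels. It was kept in CP2: the mean Pearson r of its log2 CPM, over genes, was 0.989 to CP2 tumours, 0.927 to CP1 tumours and 0.862 to P1 tumours.

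Libraries held 25081535 to 30546426 counts in CP1, 18800912 to 20638085 in CP2 and 28050484 to 37180721 in P1. Ctnnb1 stood at 917 to 1172 CPM (read counts relative to library sizes scaled by TMM) in CP1, 937 to 1044 CPM in CP2 and 1798 to 1953 CPM in P1, and counts over a whole gene do not check an exon deletion. Of the prostate identity markers, Hoxb13 was present in every tumour, at 59.5, 56.1 and 54.5 CPM in CP1 tumours, 56.1, 52.6, 48.2 and 44.5 CPM in CP2 tumours and 38.9, 39.0 and 72.2 CPM in P1 tumours. The epithelial genes Krt8, Krt18, Epcam and Cdh1 together reached 390 to 756 CPM in CP1, 62.8 to 238 CPM in CP2 and 6574 to 12630 CPM in P1, and all 4 were called lower in either CP line. Seminal vesicle and secretory prostate transcripts summed to 28.2 to 123 CPM in CP1, 3.56 to 1604 CPM in CP2 and 18600 to 171100 CPM in P1. Leaving those transcripts out of the library sizes changed no call of the 32 genes in CP1 versus P1 or CP2 versus CP1, and in CP2 versus P1 it added 1, Sqle. In bulk tumours, fewer cells of a type and less RNA per cell cannot be told apart.

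Cholesterol is made from acetyl-CoA by way of mevalonate, isoprenoid units, squalene and lanosterol, and fatty acids are made from the same precursor by carboxylation, chain extension, elongation and desaturation. The SREBP transcription factors switch on the genes of these routes: the Srebf2 product acts mainly on sterol genes and the Srebf1 product on fatty acid genes. Scap escorts the SREBP precursors from the endoplasmic reticulum to the Golgi for cleavage, and Insig1 holds them back when sterols are plentiful. In prostate cells, androgens raise lipid synthesis, and fatty acid synthase is often abundant in prostate cancer.

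SREBPs bind sterol regulatory elements and act together with NF-Y, which binds CCAAT boxes, and with Sp factors, which bind GC boxes. RefSeq promoter windows (GRCm38.p6, 250 bases before to 50 after the annotated start) were held for 25 of the 32 genes, as 31 windows. The 250 bases before the start are shown for 6 genes in which they lie outside the annotated gene body: 2 sterol genes higher in CP1 than in P1, 2 lower in CP2 than in P1, the fatty acid synthase gene and a fatty acid gene that did not pass the test. Sequences run 5′ to 3′ on the gene's strand, and capitals mark CCAAT on either strand and the sterol regulatory element core TCACNCCAC.
Hmgcs1, chr13:119690101-119690350, plus strand: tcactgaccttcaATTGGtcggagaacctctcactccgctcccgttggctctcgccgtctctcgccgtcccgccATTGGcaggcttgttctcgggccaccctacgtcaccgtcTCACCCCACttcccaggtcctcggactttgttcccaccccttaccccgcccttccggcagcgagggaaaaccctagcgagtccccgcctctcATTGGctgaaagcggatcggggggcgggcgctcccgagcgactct
Nsdhl, chrX:72918271-72918520, plus strand: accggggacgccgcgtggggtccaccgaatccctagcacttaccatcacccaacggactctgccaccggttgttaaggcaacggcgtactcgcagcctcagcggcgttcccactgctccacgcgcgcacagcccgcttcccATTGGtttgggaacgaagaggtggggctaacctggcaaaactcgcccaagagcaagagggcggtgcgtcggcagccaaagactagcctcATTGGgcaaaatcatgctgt
Sc5d, chr9:42264301-42264550, minus strand: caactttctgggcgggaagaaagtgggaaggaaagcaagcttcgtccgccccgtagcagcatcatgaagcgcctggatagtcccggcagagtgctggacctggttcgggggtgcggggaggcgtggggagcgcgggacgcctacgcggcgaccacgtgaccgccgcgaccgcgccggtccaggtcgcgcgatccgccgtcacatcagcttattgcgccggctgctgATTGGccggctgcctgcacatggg
Ebp, chrX:8193513-8193762, minus strand: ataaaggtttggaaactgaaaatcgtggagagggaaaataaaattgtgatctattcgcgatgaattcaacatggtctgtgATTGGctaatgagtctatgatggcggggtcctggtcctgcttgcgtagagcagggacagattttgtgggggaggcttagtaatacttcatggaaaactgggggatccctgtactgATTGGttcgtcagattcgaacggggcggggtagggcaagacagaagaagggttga
Fasn, chr11:120824548-120824797, minus strand: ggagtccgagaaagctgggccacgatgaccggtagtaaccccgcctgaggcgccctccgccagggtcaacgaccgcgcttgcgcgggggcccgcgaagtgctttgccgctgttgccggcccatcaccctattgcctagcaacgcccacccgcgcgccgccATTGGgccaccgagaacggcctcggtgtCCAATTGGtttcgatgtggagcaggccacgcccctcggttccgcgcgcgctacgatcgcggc
Acly, chr11:100528001-100528250, minus strand: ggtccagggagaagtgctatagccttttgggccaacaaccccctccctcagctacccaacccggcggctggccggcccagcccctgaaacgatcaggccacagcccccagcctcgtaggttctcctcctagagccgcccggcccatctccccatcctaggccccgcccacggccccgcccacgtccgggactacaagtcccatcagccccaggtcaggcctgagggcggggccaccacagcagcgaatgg

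The core TCACNCCAC was searched on both strands of the whole window and was found in 1 of the 25 genes, Hmgcs1, starting at -137 from the start as TCACCCCAC, against 1.44% of 26994 genes with a window, noncoding genes included. It overlaps none of the CCAAT boxes of that window. A gene was counted if any of its windows held the motif. CCAAT was found in 14 of 14 sterol genes with a window and in 3 of 6 fatty acid genes, against 41.0% of all genes. By window, 14 of 17 sterol windows held it, against 37.4% of all windows. The Dhcr7 boxes lie only in a window inside its annotated gene body. In Fasn, the boxes at -62 and -59 overlap, and the Acly box lies after the start. The GC box GGGCGG was found in 13 of 14 sterol genes and 2 of 6 fatty acid genes, against 38.2%. The E-box CACGTG was found in 3 of 14 sterol genes and 0 of 6 fatty acid genes, against 8.09%. A match of letters is a description of the window and not a measured binding site.

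Levels between genes were compared as CPM per kilobase of exon. Within the sterol pathway, Hmgcs1 had the highest level in CP1 (51.9 ± 23.4, SD, n = 3) and in CP2 (39.7 ± 7.88, SD, n = 4), and Ebp had the highest in P1 (50.9 ± 16.2, SD, n = 3). Tm7sf2 was the lowest sterol gene in CP1 and CP2, and Hsd17b7 the lowest in P1. Among fatty acid genes, Scd2 stood highest in each line, at 392 ± 138 in CP1, 269.9 ± 30.0 in CP2 and 234 ± 22.6 in P1. The line means ran CP1, P1, CP2 from high to low for 10 of 17 sterol genes, whereas 0 of 8 fatty acid genes had this order. For 6 of 8 fatty acid genes P1 was the lowest line. Some orders rest on near-equal means of CP1 and P1, such as 47.45 and 47.32 CPM for Dhcr7 and 73.02 and 71.71 CPM for Fdft1. The shares of these orders over all genes were not counted.

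**Figure D1:**
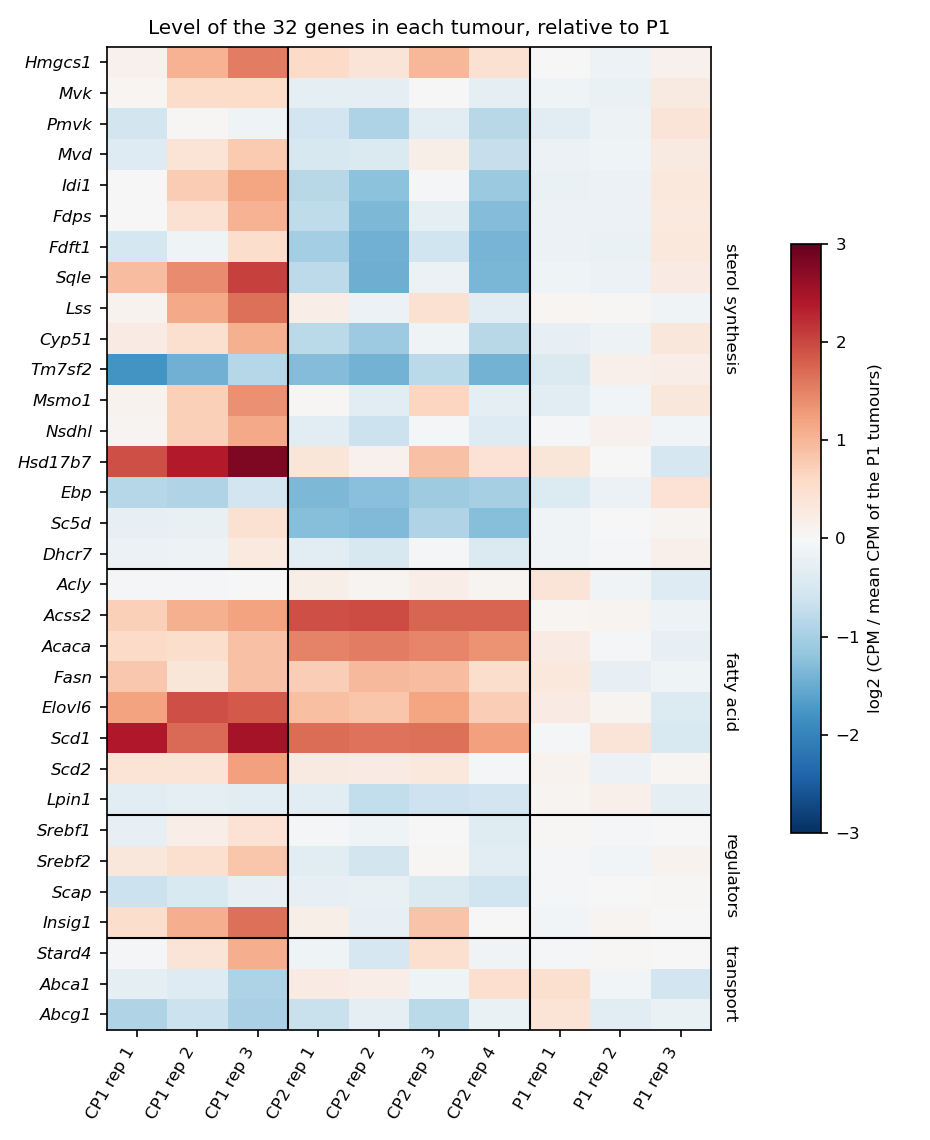
Each cell is a gene in a tumour, coloured by the log2 ratio of its CPM to the mean CPM of the 3 P1 tumours; columns are grouped as CP1, CP2 and P1 and rows by role. CP1 replicate 3 is red over most sterol rows, CP2 is blue over most of them, and Acss2, Acaca, Elovl6 and Scd1 are red in each CP1 and CP2 tumour.

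CP1 was set against P1 to ask which lipid synthesis genes separate a line carrying stabilised beta-catenin from a line without it. Of the 8 fatty acid genes, 6 rose in CP1 and 0 fell, by 1.59-fold (Acaca) to 4.73-fold (Scd1). Of the 17 sterol genes, 5 rose (Hmgcs1, Sqle, Lss, Nsdhl and Hsd17b7) and 2 fell (Tm7sf2 and Ebp), and the median log2 difference of the 17 was 0.56. Srebf2 and Insig1 rose and Scap fell, and of the transport genes Abcg1 fell. Altogether 17 of 32 genes were called in edgeR's quasi-likelihood test, with a Benjamini-Hochberg adjusted p under 0.05, against 44.8% of the 17644 genes tested. The 13 called higher compare with 22.4% of all genes higher, and the 4 called lower with 22.4% lower. The median log2 difference was -0.01 over all genes. All calls numbered 11 without CP1 replicate 3 or P1 replicate 2. The count of 5 sterol genes higher was 2 without CP1 replicate 3, P1 replicate 1 or P1 replicate 2, and 8 without CP1 replicate 1. It was 1 with CP1 replicates 2 and 3 both left out, and 1 with P1 replicates 1 and 2 both left out.

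CP2 was set against P1 to ask the same of the other stabilised line. Here more sterol genes fell than rose, and more fatty acid genes rose than fell. Of 17 sterol genes 0 rose and 7 fell (Pmvk, Fdps, Fdft1, Cyp51, Tm7sf2, Ebp and Sc5d), with a median log2 difference of -0.65, while of 8 fatty acid genes 5 rose (Acss2, Acaca, Fasn, Elovl6 and Scd1) and 1 fell (Lpin1). Scap fell too, and 0 of 3 transport genes were called. In all, 14 of 32 genes were called, against 56.7% of all genes tested. The 5 called higher compare with 28.3% of all genes higher, and the 9 called lower with 28.4% lower, around a median of 0.00 over all genes. The 7 sterol genes lower were 4 without CP2 replicate 2, CP2 replicate 4 or P1 replicate 3, 5 without CP2 replicate 1, and 10 without CP2 replicate 3. Without CP1 replicate 1 or CP1 replicate 3, which share the fit, 1 sterol gene, Hmgcs1, was called higher in CP2. The comparisons of CP1 and of CP2 with P1 share the P1 tumours.

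CP2 was set against CP1 to compare the stabilised lines with each other. Sterol genes were lower in CP2: of 17, 0 were higher and 10 lower (Mvk, Idi1, Fdps, Fdft1, Sqle, Lss, Cyp51, Nsdhl, Hsd17b7 and Sc5d), at a median log2 difference of -1.02. The fatty acid genes split, with Acss2 and Acaca higher and Elovl6 and Scd1 lower in CP2. Srebf2 and Insig1 were lower in CP2 and Abca1 was higher. In all, 17 of 32 genes were called, against 43.3% of all genes tested. The 3 called higher compare with 21.3% of all genes higher, and the 14 called lower with 21.9% lower, around a median of -0.01. With CP1 replicates 2 and 3 both left out, CP1 is a lone tumour, assumed to vary like the other lines, and 3 sterol genes were lower. When single tumours were left out, 9 to 13 were lower. The count of 2 fatty acid genes lower was 1 without CP1 replicate 3 or any 1 CP2 tumour.

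**Figure D2:**
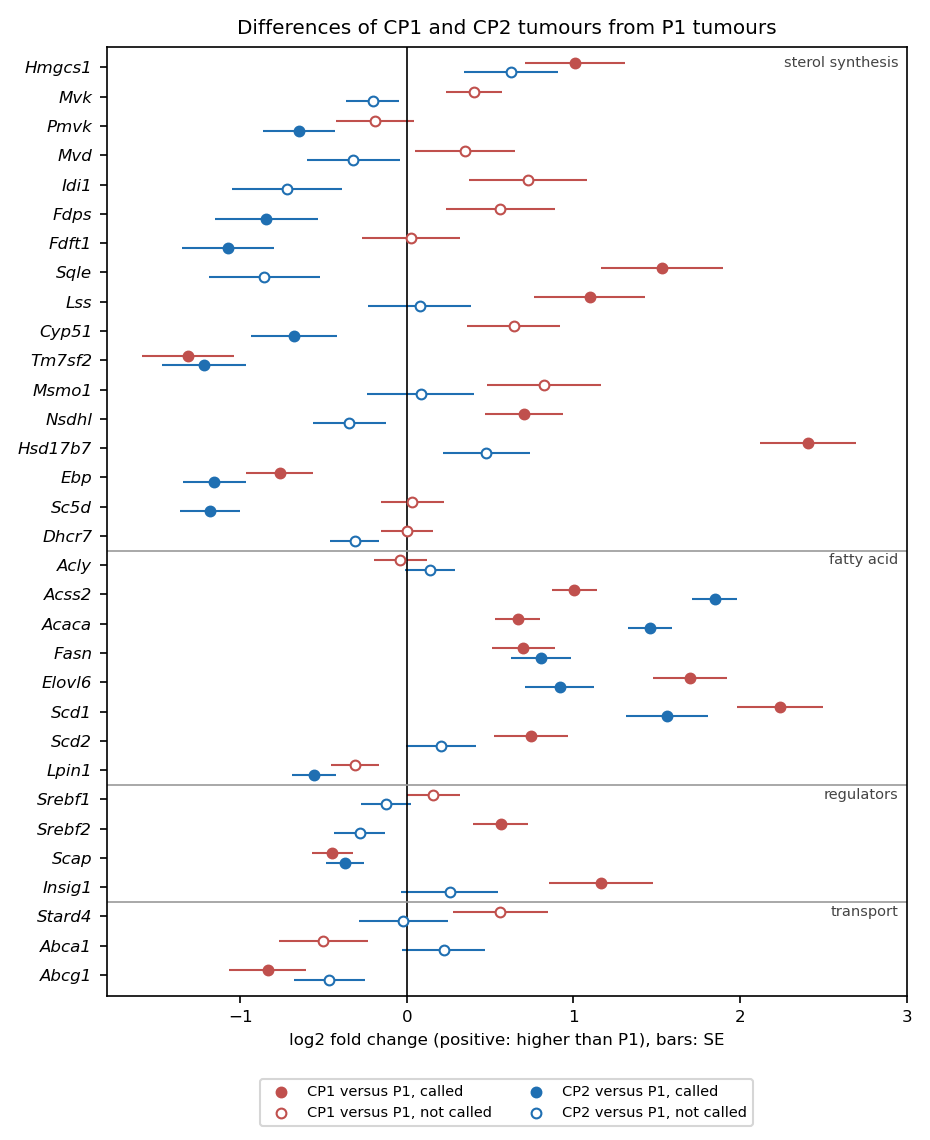
Log2 fold changes of CP1 (red) and CP2 (blue) against P1 with their SE, filled where the gene was called and open where it was not. Of the 17 sterol genes, 14 lie right of 0 in CP1 and 4 in CP2, while the fatty acid genes other than Acly and Lpin1 lie right of 0 in both.

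Markers of other cell types were compared between lines too. Over all genes tested, 44.8%, 56.7% and 43.3% were called in CP1 versus P1, CP2 versus P1 and CP2 versus CP1. Those called higher were 22.4%, 28.3% and 21.3%, and those called lower 22.4%, 28.4% and 21.9%. The called shares of the adipocyte and macrophage lists lay below those over all genes in each comparison. The adipocyte list summed to 77.3 to 329 CPM in CP1, 34.2 to 191 CPM in CP2 and 53.6 to 169 CPM in P1. Of its 9 tested genes of 10, 1 was higher and 0 lower in CP1 than in P1, 0 and 1 in CP2 than in P1, and 0 and 1 in CP2 than in CP1. Adipoq, a defining adipocyte gene, had 16.6, 5.55 and 0.486 CPM in CP1 tumours, 0.154, 0, 13.7 and 0.0931 CPM in CP2 tumours and 0.0616, 4.77 and 1.02 CPM in P1 tumours. Macrophage markers summed to 739 to 1558 CPM in CP1, 1196 to 1783 CPM in CP2 and 1392 to 1793 CPM in P1, with 2 of 12 higher and 1 lower in CP1 than in P1, 1 and 1 in CP2 than in P1, and 1 and 0 in CP2 than in CP1. Uroplakin and other urothelial genes together reached 61.4, 1370 and 560.1 CPM in CP1 replicates 1, 2 and 3, with a range of 2.75 to 11.5 CPM over CP2 tumours and 182 to 388 CPM over P1 tumours. Most of the P1 sum was Krt20, at 3.00, 18.8 and 13.6 CPM in CP1 tumours and 134, 248 and 353 CPM in P1 tumours, and this gene was lower in CP1 than in P1 while the other 6 of 7 were higher. In CP2, 7 of 7 urothelial genes were lower than in CP1 and 3 of 7 lower than in P1. Proliferation genes summed to 1465 to 2055 CPM in CP1, 1285 to 1549 CPM in CP2 and 598 to 772 CPM in P1. Of 10, 8 were higher in CP1 than in P1 and 10 in CP2 than in P1. Between the CP lines, 6 of 10 were higher and 2 lower in CP2 than in CP1. The larger CP1 sum came from Rrm2, at a mean of 838 CPM in CP1 and 274 CPM in CP2. Smooth muscle genes summed to 609 to 3799 CPM in CP1, 262 to 518 CPM in CP2 and 964 to 2692 CPM in P1. Of 6, 1 was higher in CP1 than in P1, 5 were lower in CP2 than in P1 and 6 were lower in CP2 than in CP1. Fibroblast genes summed to 15370 to 23860 CPM in CP1, 8092 to 9971 CPM in CP2 and 5191 to 9924 CPM in P1. Of 10, 4 were higher and 1 lower in CP1 than in P1, 4 and 6 in CP2 than in P1, and 2 and 6 in CP2 than in CP1. Endothelial genes were called in 0 of 8 in CP1 versus P1, and 4 of 8 were lower in CP2 than in either other line. Neutrophil genes were lower in CP2 for 2 of 6 against P1, near the 28.4% of all genes lower, and for 5 of 6 against CP1. The part of these markers in the lipid gene differences was not tested.

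Of the early sterol enzymes, Hmgcs1 makes HMG-CoA. Hmgcs1 (chr13:119690379-119708260, GRCm38, as for all gene positions) had, in replicate order, 129, 242 and 344 CPM in CP1 tumours, 177, 155, 235 and 163 CPM in CP2 tumours and 119, 106 and 129.9 CPM in P1 tumours. The CP1 tumours were spread widely and only their lowest overlapped P1, while the 4 CP2 tumours all lay above P1. Lines without overlap were common: of 17644 genes tested, 4500 lay wholly higher and 4469 wholly lower in CP1 than in P1. Such genes numbered 5373 and 5239 in CP2 versus P1, and 4719 and 4517 in CP2 versus CP1. Hmgcs1 rose in CP1, at a log2 fold change of 1.01 ± 0.30 (adjusted p = 0.0194), where ± marks the SE, and the call was lost when CP1 replicate 3, or P1 replicate 1 or 2 was left out (adjusted p = 0.0511 to 0.0783). In CP2 versus P1 it was 0.62 ± 0.28 (adjusted p = 0.0820), not called, although it was called without CP1 replicate 1 or 3 (adjusted p = 0.0151 and 0.0392). In CP2 versus CP1 it was -0.39 ± 0.28 (adjusted p = 0.283), not called. Leaving out 1 tumour moved that difference over -0.69 to -0.03, and it was called without CP1 replicate 1 (-0.69, adjusted p = 0.0204). An antisense gene, Gm48342, covers 12.1% of its exon length. Mvk, Pmvk and Mvd phosphorylate mevalonate and decarboxylate the product. Mvk (chr5:114444269-114460591) had 31.0, 43.4 and 43.0 CPM in CP1 tumours, 24.2, 24.7, 29.3 and 24.3 CPM in CP2 tumours and 27.2, 25.6 and 35.9 CPM in P1 tumours. All CP2 tumours lay below all CP1 tumours, and CP2 was lower than CP1, at log2 -0.61 ± 0.16 (adjusted p = 0.0109). Pmvk (chr3:89454541-89469013) had 14.7, 22.3 and 19.9 CPM in CP1 tumours, 14.4, 11.4, 17.2 and 12.2 CPM in CP2 tumours and 17.1, 19.5 and 28.3 CPM in P1 tumours. The lowest P1 tumour overlapped the highest CP2 tumour, and Pmvk fell in CP2 versus P1, at -0.65 ± 0.22 (adjusted p = 0.0278), a call lost when CP2 replicate 2 or 4, or P1 replicate 3 was left out (adjusted p = 0.0699 to 0.119). Mvd had 22.7 to 51.4 CPM in CP1, 18.4 to 33.6 CPM in CP2 and 26.2 to 36.1 CPM in P1 and passed in no comparison (adjusted p = 0.375, 0.352 and 0.0776 for CP1 versus P1, CP2 versus P1 and CP2 versus CP1).

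Isoprenoid units are made and joined by the next enzymes. Idi1 (chr13:8885501-8892451), the isopentenyl diphosphate isomerase, had 61.7, 105 and 139 CPM in CP1 tumours, 34.8, 26.3, 60.1 and 28.2 CPM in CP2 tumours and 53.5, 54.7 and 76.3 CPM in P1 tumours. Every CP1 tumour lay above every CP2 tumour, though CP1 replicate 1 lay barely above CP2 replicate 3, and P1 overlapped both. CP2 was lower than CP1, at log2 -1.45 ± 0.33 (adjusted p = 0.00583), and neither line was called against P1 (adjusted p = 0.121 for CP1 and 0.0860 for CP2). Fdps (chr3:89093588-89101959), the farnesyl diphosphate synthase, had 22.6, 31.5 and 47.3 CPM in CP1 tumours, 13.5, 9.03, 19.1 and 9.36 CPM in CP2 tumours and 20.3, 20.2 and 28.1 CPM in P1 tumours. All CP2 tumours lay below all CP1 and all P1 tumours. Fdps fell in CP2, at log2 -0.84 ± 0.31 (adjusted p = 0.0390) versus P1 and -1.40 ± 0.31 (adjusted p = 0.00487) versus CP1. The call against P1 was lost when CP1 replicate 2, CP2 replicate 1, 2 or 4, or P1 replicate 2 or 3 was left out (adjusted p = 0.0513 to 0.132). Of the Fdps exon length, 26.7% is shared with Gm43738 on the same strand, so its counts are uncertain.

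Squalene and lanosterol are formed by the next enzymes. Fdft1 (chr14:63145150-63179578), squalene synthase, had 49.5, 65.6 and 104 CPM in CP1 tumours, 35.4, 26.3, 47.4 and 27.1 CPM in CP2 tumours and 63.3, 62.8 and 89.0 CPM in P1 tumours. CP2 lay below CP1 and P1 without overlap, and it fell, at log2 -1.07 ± 0.28 (adjusted p = 0.00765) versus P1 and -1.10 ± 0.28 (adjusted p = 0.00983) versus CP1. Its exons overlap Ctsb on the opposite strand over 18.3% of their length, and the strand setting of the counting was not known here. Sqle (chr15:59315077-59331192), squalene epoxidase and a rate-limiting step of the later pathway, had 175, 245 and 379 CPM in CP1 tumours, 53.8, 33.2, 81.2 and 35.5 CPM in CP2 tumours and 84.7, 81.7 and 110.2 CPM in P1 tumours. The 3 lines did not overlap, CP1 being highest and CP2 lowest, though CP2 replicate 3 (81.22 CPM) lay barely below P1 replicate 2 (81.68 CPM). Sqle rose in CP1 versus P1, at log2 1.53 ± 0.36 (adjusted p = 0.00656), and was 5.23-fold lower in CP2 than in CP1, at -2.39 ± 0.34 (adjusted p = 4.38e-04). In CP2 versus P1 it was -0.86 ± 0.33 (adjusted p = 0.05001), just outside the threshold, and it was called without CP1 replicate 1, CP1 replicate 3 or CP2 replicate 3 (adjusted p = 0.00904 to 0.0371). It was also called with DESeq2 (adjusted p = 0.0238), with its size factors (0.0455) and with low counts kept (0.0352). The same held with only these lines fitted (0.0371), library sizes without secretory genes (0.0436) and robust dispersion (0.04996). Lss (chr10:76531588-76557138), lanosterol synthase, had 36.9, 76.2 and 108 CPM in CP1 tumours, 39.7, 30.5, 47.3 and 27.9 CPM in CP2 tumours and 35.9, 35.2 and 32.3 CPM in P1 tumours. CP1 lay above P1 in each tumour, though CP1 replicate 1 did so barely, and it overlapped CP2. Lss rose in CP1, at 1.10 ± 0.33 (adjusted p = 0.0215), and was lower in CP2 than in CP1, at -1.02 ± 0.31 (adjusted p = 0.0222). The rise was not called when CP1 replicate 3, or P1 replicate 1, 2 or 3 was left out (adjusted p = 0.0503 to 0.0903), nor the difference from CP1 when CP1 replicate 2 or 3, or CP2 replicate 2 or 4 was left out (adjusted p = 0.0570 to 0.109).

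The next enzymes demethylate lanosterol and reduce the product. Cyp51 (chr5:4081145-4104746), the lanosterol demethylase, had 148, 174 and 259.6 CPM in CP1 tumours, 70.4, 58.2, 113 and 69.2 CPM in CP2 tumours and 104, 112 and 156 CPM in P1 tumours. CP2 lay below CP1 without overlap, and its highest tumour overlapped P1. Cyp51 fell in CP2, at log2 -0.68 ± 0.26 (adjusted p = 0.0467) versus P1 and -1.32 ± 0.26 (adjusted p = 0.00271) versus CP1, and the call against P1 was lost when CP1 replicate 2, CP2 replicate 1, 2 or 4, or P1 replicate 2 or 3 was left out (adjusted p = 0.0583 to 0.176). Tm7sf2 (chr19:6062821-6068373), a sterol reductase, had 6.71, 8.57 and 12.8 CPM in CP1 tumours, 9.41, 8.69, 13.3 and 8.70 CPM in CP2 tumours and 17.3, 25.7 and 26.9 CPM in P1 tumours. All P1 tumours lay above all CP1 and CP2 tumours. Tm7sf2 fell in CP1, at -1.31 ± 0.27 (adjusted p = 0.00319), and in CP2, at -1.22 ± 0.25 (adjusted p = 0.00233), and both calls were kept when any 1 tumour was left out. It shares 12.1% of its exon length with Vps51 on the same strand. Msmo1, a methylsterol oxidase, ranged over 85.1 to 203 CPM in CP1, 63.1 to 124 CPM in CP2 and 61.7 to 99.4 CPM in P1 and was not called (adjusted p = 0.0753, 0.839 and 0.0838, in the order of comparisons given for Mvd).

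Nsdhl and Hsd17b7 act together with Msmo1 in removing the methyl groups at the fourth carbon. Nsdhl (chrX:72918557-72958514) had 35.7, 55.2 and 73.8 CPM in CP1 tumours, 26.6, 21.6, 32.3 and 25.6 CPM in CP2 tumours and 32.8, 36.6 and 31.6 CPM in P1 tumours. The lowest CP1 tumour overlapped P1, and all CP2 tumours lay below CP1. Nsdhl rose in CP1, at log2 0.70 ± 0.23 (adjusted p = 0.0321), a call lost when CP1 replicate 2 or 3, or P1 replicate 1, 2 or 3 was left out (adjusted p = 0.0614 to 0.131), and was lower in CP2 than in CP1, at -1.05 ± 0.22 (adjusted p = 0.00356). Hsd17b7 (chr1:169949535-169969241) had 47.3, 64.9 and 86.7 CPM in CP1 tumours, 15.99, 13.7, 23.0 and 16.8 CPM in CP2 tumours and 15.96, 12.6 and 8.83 CPM in P1 tumours. Each CP1 tumour was above each CP2 and P1 tumour without overlap, and CP2 overlapped P1. Hsd17b7 rose 5.31-fold in CP1, at 2.41 ± 0.29 (adjusted p = 1.04e-04), the largest rise among the 17, and it was 3.82-fold lower in CP2 than in CP1, at -1.93 ± 0.26 (adjusted p = 3.04e-04). In CP2 versus P1 it was 0.48 ± 0.26 (adjusted p = 0.146), not called.

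The last enzymes shift and form the double bonds of the sterol rings. Ebp (chrX:8185329-8193512), a sterol isomerase, had 65.5, 63.2 and 79.2 CPM in CP1 tumours, 46.3, 49.2, 56.4 and 59.3 CPM in CP2 tumours and 88.4, 104 and 159.6 CPM in P1 tumours. P1 was highest without overlap, and CP2 lay below CP1 in each tumour. Ebp fell in CP1, at log2 -0.76 ± 0.20 (adjusted p = 0.0115), and in CP2, at -1.15 ± 0.19 (adjusted p = 5.24e-04), and these calls were kept when any 1 tumour was left out. Sc5d (chr9:42251595-42264256), a sterol desaturase, had 40.2, 40.9 and 65.1 CPM in CP1 tumours, 19.5, 19.1, 25.6 and 19.7 CPM in CP2 tumours and 44.5, 47.8 and 50.5 CPM in P1 tumours. CP2 was lower than either other line without overlap, while CP1 and P1 overlapped. Sc5d fell in CP2, at -1.18 ± 0.18 (adjusted p = 3.27e-04) versus P1 and -1.21 ± 0.18 (adjusted p = 5.22e-04) versus CP1. Dhcr7, which makes cholesterol in the final reduction, held 41.9 to 58.2 CPM in CP1, 34.1 to 45.6 CPM in CP2 and 43.8 to 52.4 CPM in P1 and was not called (adjusted p = 0.988, 0.0923 and 0.106).

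**Figure D3:**
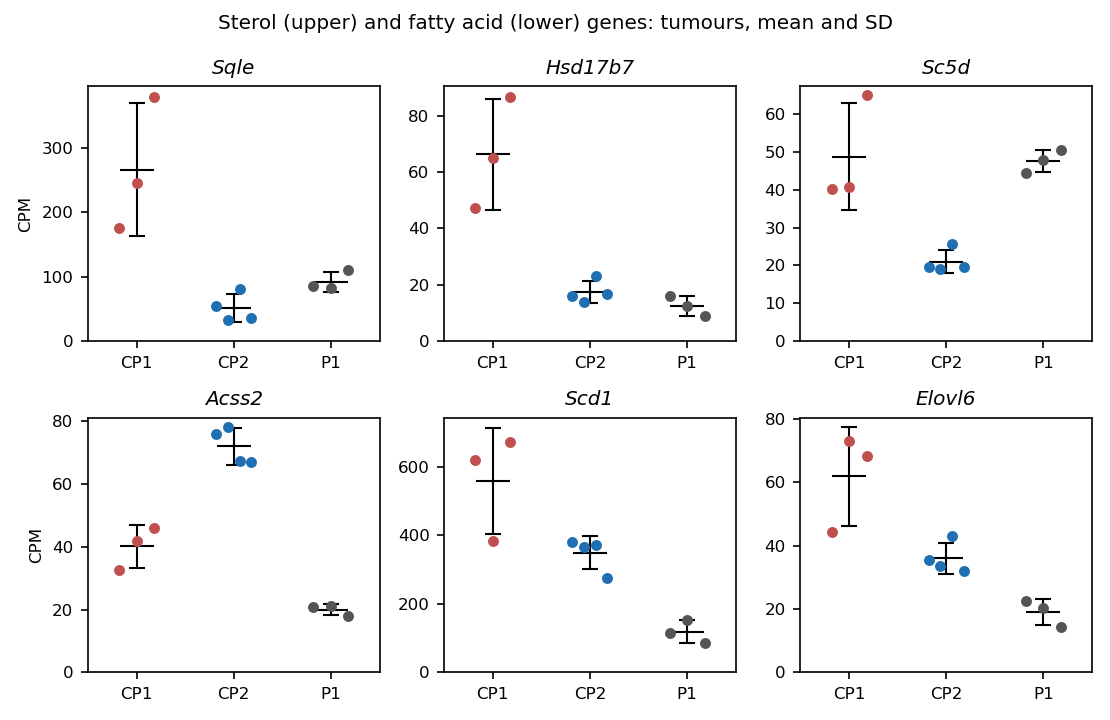
CPM of 3 sterol genes (upper row) and 3 fatty acid genes (lower row) in each tumour, with the mean and SD of CP1 (n = 3), CP2 (n = 4) and P1 (n = 3). Sqle and Hsd17b7 are highest in CP1 and Sc5d lowest in CP2, while Acss2, Scd1 and Elovl6 are lowest in P1.

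The fatty acid genes begin with the supply of acetyl-CoA. Acly, which makes acetyl-CoA from citrate, ranged over 225 to 233 CPM in CP1, 249 to 269.9 CPM in CP2 and 182 to 306 CPM in P1. The P1 tumours spanned the other lines, and CP2 lay above CP1 in each tumour. Acly was not called in CP1, at log2 -0.04 ± 0.16 (adjusted p = 0.868), nor in the other comparisons (adjusted p = 0.450 and 0.363). Its fitted difference in CP1 turned to 0.18 without P1 replicate 1 (adjusted p = 0.174) and to 0.31 without P1 replicates 1 and 2 (adjusted p = 0.0324). Acss2 (chr2:155517948-155585724), which makes acetyl-CoA from acetate, had 32.6, 41.9 and 45.9 CPM in CP1 tumours, 75.8, 78.1, 67.2 and 66.8 CPM in CP2 tumours and 20.8, 21.2 and 18.0 CPM in P1 tumours. The lines did not overlap, with CP2 highest and P1 lowest. Acss2 rose in CP1, at 1.00 ± 0.14 (adjusted p = 2.21e-04), and in CP2, at 1.85 ± 0.13 (adjusted p = 3.10e-06), and CP2 exceeded CP1, at 0.84 ± 0.13 (adjusted p = 6.09e-04). Acaca (chr11:84129672-84401651), the acetyl-CoA carboxylase that makes malonyl-CoA, had 89.2, 86.3 and 110.1 CPM in CP1 tumours, 168, 173, 166 and 154 CPM in CP2 tumours and 71.5, 58.2 and 50.4 CPM in P1 tumours. It was likewise highest in CP2 and lowest in P1 without overlap. Acaca rose in CP1, at 0.66 ± 0.14 (adjusted p = 0.00301), and in CP2, at 1.46 ± 0.13 (adjusted p = 1.35e-05), and CP2 exceeded CP1, at 0.79 ± 0.13 (adjusted p = 9.86e-04).

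Fasn (chr11:120805846-120824547), fatty acid synthase, had 364, 267 and 383 CPM in CP1 tumours, 349, 412, 397 and 302 CPM in CP2 tumours and 258, 177 and 189.9 CPM in P1 tumours. All CP1 and CP2 tumours lay above P1, and CP1 and CP2 overlapped. Fasn rose in CP1, at log2 0.70 ± 0.19 (adjusted p = 0.0128), a call lost when P1 replicate 2 was left out (adjusted p = 0.0569), and in CP2, at 0.81 ± 0.18 (adjusted p = 0.00346). Elovl6 (chr3:129532355-129638495), which elongates palmitate, had 44.2, 73.0 and 68.5 CPM in CP1 tumours, 35.4, 33.7, 43.0 and 32.03 CPM in CP2 tumours and 22.5, 20.3 and 14.3 CPM in P1 tumours. The lines did not overlap, CP1 being highest and P1 lowest. Elovl6 rose in CP1, at 1.70 ± 0.22 (adjusted p = 1.80e-04), and in CP2, at 0.92 ± 0.21 (adjusted p = 0.00376), and CP2 was below CP1, at -0.78 ± 0.20 (adjusted p = 0.0109). Lpin1 (chr12:16535669-16610966), a phosphatidate phosphatase of glycerolipid synthesis, had 18.3, 18.8 and 18.4 CPM in CP1 tumours, 18.0, 13.8, 15.01 and 15.5 CPM in CP2 tumours and 24.4, 25.6 and 18.8 CPM in P1 tumours. CP2 lay below CP1 and P1 without overlap, though CP2 replicate 1 lay barely below CP1, and CP1 overlapped the lowest P1 tumour. Lpin1 fell in CP2 versus P1, at -0.56 ± 0.13 (adjusted p = 0.00524), and CP1 versus P1 was not called (adjusted p = 0.105), although without P1 replicate 3 it was the 1 fatty acid gene called lower in CP1.

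The stearoyl-CoA desaturases Scd1 and Scd2 introduce the double bond of oleate and palmitoleate. Scd1 (chr19:44394455-44407879) had 622, 383 and 672 CPM in CP1 tumours, 380.0, 366, 373 and 277 CPM in CP2 tumours and 115, 153 and 86.5 CPM in P1 tumours. P1 was lowest without overlap, and CP2 lay below CP1 in each tumour, though CP2 replicate 1 lay barely below CP1 replicate 2. Scd1 rose 4.73-fold in CP1, at log2 2.24 ± 0.26 (adjusted p = 8.64e-05), and 2.95-fold in CP2, at 1.56 ± 0.24 (adjusted p = 4.01e-04). CP2 was lower than CP1, at -0.68 ± 0.23 (adjusted p = 0.0373), a call lost when CP1 replicate 1 or 3, or CP2 replicate 1, 2, 3 or 4 was left out (adjusted p = 0.0572 to 0.135). Scd2 (chr19:44293674-44306864) had 1711, 1703 and 3016 CPM in CP1 tumours, 1543, 1518, 1603 and 1234 CPM in CP2 tumours and 1369, 1138 and 1330 CPM in P1 tumours. CP1 replicate 3 stood far above the other tumours, every CP1 tumour lay above every CP2 and P1 tumour, and CP2 overlapped P1. Scd2 rose in CP1, at 0.74 ± 0.22 (adjusted p = 0.0205), a call lost when CP1 replicate 3 or P1 replicate 2 was left out (adjusted p = 0.0563 to 0.0821), and was not called in CP2 versus P1 (adjusted p = 0.423) or, at -0.54 ± 0.21 (adjusted p = 0.0577), in CP2 versus CP1. The second was called without CP1 replicate 1 or 2 (adjusted p = 0.0356 and 0.0374), with DESeq2 (adjusted p = 0.0300) and with low counts kept (adjusted p = 0.0487). Per exon length, Scd1 made up 23.0% ± 5.13 of the summed Scd1 and Scd2 level in CP1 (SD, n = 3), 20.9% ± 0.674 in CP2 (n = 4) and 9.47% ± 3.25 in P1 (n = 3). The genes are paralogues, and reads shared between them could be split by counting.

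Of the regulators, Srebf2 (chr15:82147181-82205379) had 348, 388 and 492 CPM in CP1 tumours, 222, 190.2, 282 and 217 CPM in CP2 tumours and 271, 259.8 and 299.7 CPM in P1 tumours. CP1 was highest without overlap, and CP2 and P1 overlapped. Srebf2 rose in CP1, at log2 0.56 ± 0.17 (adjusted p = 0.0188), a call lost when CP1 replicate 3, or P1 replicate 1 or 2 was left out (adjusted p = 0.0539 to 0.0750), and was lower in CP2 than in CP1, at -0.85 ± 0.15 (adjusted p = 0.00172). Srebf1 spread over 169 to 272 CPM in CP1, 156 to 200.2 CPM in CP2 and 195 to 205 CPM in P1 and was not called in any comparison (adjusted p = 0.451, 0.508 and 0.154). Insig1 (chr5:28071363-28078662), itself an SREBP target, had 64.0, 94.8 and 140.4 CPM in CP1 tumours, 49.9, 37.3, 80.2 and 44.8 CPM in CP2 tumours and 41.9, 47.1 and 44.2 CPM in P1 tumours. All CP1 tumours lay above P1, and CP2 overlapped both. Insig1 rose in CP1, at 1.17 ± 0.31 (adjusted p = 0.0120), and was lower in CP2 than in CP1, at -0.91 ± 0.29 (adjusted p = 0.0273), the second call being lost when CP1 replicate 2 or 3, or CP2 replicate 1, 2 or 4 was left out (adjusted p = 0.0544 to 0.131). Scap (chr9:110333288-110384950) had 70.1, 80.3 and 92.1 CPM in CP1 tumours, 92.4, 93.8, 82.1 and 72.3 CPM in CP2 tumours and 108, 109.7 and 113 CPM in P1 tumours. P1 was highest without overlap. Scap fell in CP1, at -0.45 ± 0.12 (adjusted p = 0.0139), and in CP2, at -0.37 ± 0.11 (adjusted p = 0.0187), and these calls were kept when any 1 tumour was left out. As a share of the summed level per exon length, Srebf1 took 40.8% ± 2.37 of Srebf1 and Srebf2 in CP1 (SD, n = 3), 50.8% ± 3.76 in CP2 (n = 4) and 47.9% ± 1.89 in P1 (n = 3).

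Abca1 and Abcg1 export cholesterol and are known targets of the liver X receptors, and Stard4 carries cholesterol between membranes. Abcg1 (chr17:31057675-31117988) had 11.3, 13.4 and 10.7 CPM in CP1 tumours, 13.2, 17.3, 12.1 and 18.5 CPM in CP2 tumours and 28.1, 16.9 and 18.2 CPM in P1 tumours. CP1 lay below P1 without overlap, and CP2 overlapped both. Abcg1 fell in CP1, at log2 -0.83 ± 0.23 (adjusted p = 0.0138), a call lost when CP1 replicate 3 was left out (adjusted p = 0.0507). Abca1 (chr4:53030787-53159895) had 56.2, 51.5 and 35.6 CPM in CP1 tumours, 80.7, 77.3, 61.9 and 95.3 CPM in CP2 tumours and 94.0, 63.6 and 45.1 CPM in P1 tumours. CP2 lay above CP1 in each tumour, and P1 overlapped both. CP2 was higher than CP1, at 0.72 ± 0.25 (adjusted p = 0.0419), a call lost when CP1 replicate 2 or 3, CP2 replicate 1, 2 or 4, or P1 replicate 2 was left out (adjusted p = 0.0524 to 0.145) and when low counts were not filtered (adjusted p = 0.0506). Stard4 held 46.1 to 101 CPM in CP1, 33.3 to 65.2 CPM in CP2 and 45.5 to 48.2 CPM in P1 and was not called (adjusted p = 0.140, 0.954 and 0.104).

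Replicate numbers follow accession order and only name a tumour. Within each line, 1 tumour carried the highest level of most sterol genes. CP1 replicate 3 was the highest CP1 tumour for 15 of 17 and CP1 replicate 1 the lowest for 16. In CP2, replicate 3 was highest for 16 of 17 and replicate 2 lowest for 13. CP1 replicate 1 was the lowest of its line for 35.7% of all genes tested, and CP2 replicate 2 for 21.4%. P1 replicate 3 was highest for 14 of 17. Over all genes tested these tumours were the highest of their line for 29.8% (CP1 replicate 3), 22.4% (CP2 replicate 3) and 36.5% (P1 replicate 3). Their sterol genes lay at a median of 0.48, 0.41 and 0.29 above the line mean of log2 (CPM + 0.5). Of the fatty acid genes, CP1 replicate 3 was highest for 6 of 8, CP2 replicate 3 for 3 and P1 replicate 3 for 0.

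**Figure D4:**
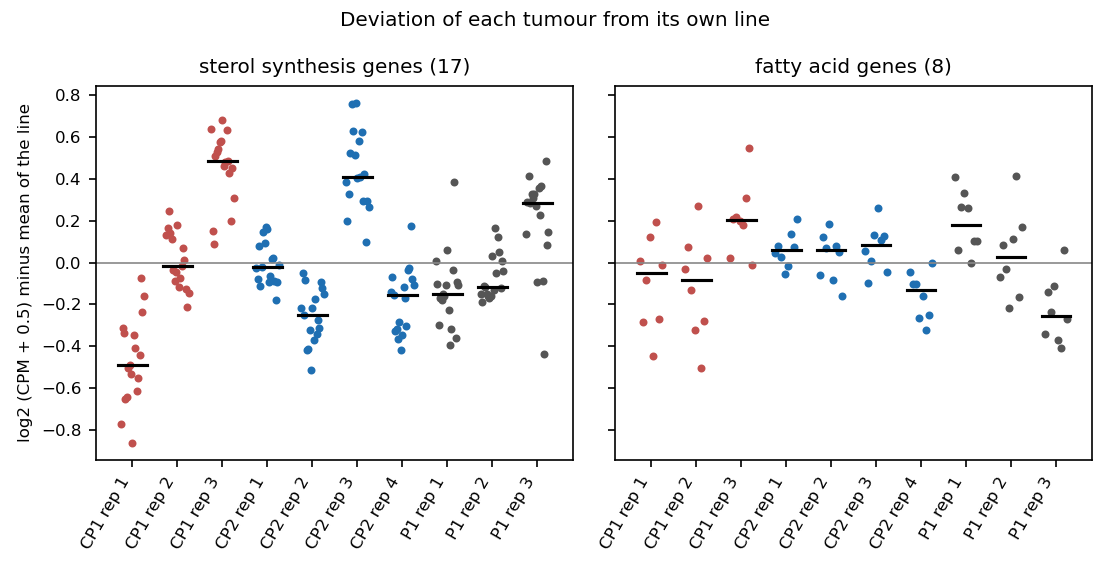
Each point is a gene's deviation from the mean of its own line, on the scale log2 (CPM + 0.5), in each tumour, with sterol genes at left, fatty acid genes at right and a bar at the median. The sterol medians of CP1 replicate 3, CP2 replicate 3 and P1 replicate 3 lie at 0.48, 0.41 and 0.29, while the fatty acid median of P1 replicate 3 lies below 0.

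The spread of the sterol genes within lines was given by the coefficient of variation. Its median was 34.7% in CP1, 23.1% in CP2 and 19.8% in P1, against 10.98%, 8.17% and 15.04% over the 11980 genes that averaged 5 CPM or more. The fatty acid genes had 17.7%, 11.2% and 19.4%. The ratio of the highest to the lowest CP1 tumour had a median of 2.07 over the sterol genes and was highest for Lss, at 2.94. Other cell types varied between the same tumours. In CP2, replicate 3 held the most adipocyte transcripts, at 191 CPM, against 34.2 to 37.6 CPM in the other CP2 tumours, with Cidec at 13.1 CPM and at most 0.0466 CPM in the others. In CP1, replicate 3, with the highest sterol levels, held the fewest adipocyte transcripts, at 77.3 CPM, against 329 and 238 CPM in replicates 1 and 2. Proliferation genes summed to 1465, 1740 and 2055 CPM in CP1 replicates 1, 2 and 3. Of this list only Rrm2 rose in that order, at 464, 869 and 1181 CPM, whereas Top2a had 332, 271 and 283 CPM. In CP2 the proliferation genes summed to 1285, 1313, 1545 and 1549 CPM in replicates 1 to 4, and in P1 to 620.0, 598 and 772 CPM. Macrophage markers were lowest in CP1 replicate 3, at 739 CPM, and highest in P1 replicate 3, at 1793 CPM. Smooth muscle genes followed the sterol order in CP1, at 609, 2535 and 3799 CPM in replicates 1, 2 and 3. In CP2 they were highest in replicate 4 (304, 262, 280.1 and 518 CPM in replicates 1 to 4), and in P1 in replicate 1 (2692, 1217 and 964 CPM). Skeletal muscle genes summed to 3.68, 29.5 and 58.1 CPM in CP1, 4.68, 6.33, 13.7 and 7.45 CPM in CP2 and 55.3, 40.2 and 13.9 CPM in P1. The fibroblast sum ran the other way in CP1, at 23860, 17380 and 15370 CPM, and was mostly Col1a1, Col1a2 and Col3a1. Its members differed. Col1a2, Col3a1 and Lum fell in this order, Pdgfra rose, at 42.5, 77.9 and 89.85 CPM, and the rest did neither. The part of these other cell types and of proliferation in the spread of the sterol genes was not tested.

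Further genes of the same pathways were counted from lists. Of 11 further sterol and isoprenoid genes, 6 were higher and 2 lower in CP1 than in P1, 5 and 4 in CP2 than in P1, and 1 and 4 in CP2 than in CP1. The shares of all genes tested called higher and lower were 22.4% and 22.4%, 28.3% and 28.4%, and 21.3% and 21.9% in the same comparisons. Soat1, which esterifies cholesterol for storage, rose in CP1 (177 ± 30.4 CPM in CP1 and 38.6 ± 6.28 CPM in P1, log2 2.2 ± 0.16, adjusted p = 4.60e-06) and in CP2 (log2 0.86 ± 0.14, adjusted p = 6.08e-04). Npc2, a lysosomal cholesterol carrier, rose in CP1 (793 ± 107 CPM in CP1 and 325 ± 55.2 CPM in P1, log2 1.29 ± 0.15, adjusted p = 8.00e-05) and was lower in CP2 than in CP1, at -1.07 ± 0.13 (adjusted p = 2.15e-04). Acat2, a thiolase at the entry of the mevalonate route, fell in CP2 versus CP1 (15.3 ± 3.52 CPM in CP2 and 47.1 ± 15.7 CPM in CP1, log2 -1.62 ± 0.27, adjusted p = 0.00103). Against P1 it rose in CP1, at 0.92 ± 0.29, and fell in CP2, at -0.71 ± 0.27 (adjusted p = 0.0254 and 0.0457). Tmem97, a sterol-responsive membrane protein, rose in CP1, at 1.17 ± 0.22 (adjusted p = 0.00156), and in CP2 versus P1 (36.6 ± 4.40 CPM in CP2 and 21.4 ± 7.30 CPM in P1, log2 0.78 ± 0.20, adjusted p = 0.00847). Lbr, a sterol reductase of the nuclear envelope, was higher in CP2 than in CP1, at log2 0.27 ± 0.10 (adjusted p = 0.0471). Against P1 it rose in CP1, at 0.46 ± 0.10, and in CP2, at 0.73 ± 0.10 (adjusted p = 0.00522 and 1.68e-04). Pdss2 and Coq2, of ubiquinone synthesis, fell in CP1 versus P1, at log2 -0.53 ± 0.17 and -0.48 ± 0.14 (adjusted p = 0.0292 and 0.0172), and in CP2 versus P1, at -0.67 ± 0.16 and -0.46 ± 0.13 (adjusted p = 0.00483 and 0.0126).

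Of 25 further fatty acid and glycerolipid genes, 24 passed the filter. Of these, 9 were higher and 6 lower in CP1 than in P1, 7 and 9 in CP2 than in P1, and 4 and 9 in CP2 than in CP1. The shares over all genes were 22.4% and 22.4%, 28.3% and 28.4%, and 21.3% and 21.9%, so that 7 of 24 higher in CP2 than in P1 lay near its share. Acsl4, a ligase that activates long-chain polyunsaturated fatty acids, rose in CP1 (710.2 ± 101 CPM in CP1 and 144 ± 20.8 CPM in P1, log2 2.30 ± 0.17, adjusted p = 5.64e-06) and in CP2, at 0.98 ± 0.15 (adjusted p = 4.44e-04). Elovl7, an elongase, fell in CP1 (1.25 ± 0.377 CPM in CP1 and 49.9 ± 8.63 CPM in P1, log2 -5.30 ± 0.26, adjusted p = 8.37e-07) and in CP2 (1.16 ± 0.233 CPM in CP2 and 49.9 ± 8.63 CPM in P1, log2 -5.42 ± 0.24, adjusted p = 2.98e-07). Gpam, which starts glycerolipid synthesis, and Acsl3 rose in CP2 versus P1, at log2 1.80 ± 0.34 and 1.59 ± 0.22 (adjusted p = 0.00145 and 1.90e-04). Acsl3 rose in CP1 too, at 1.20 ± 0.23 (adjusted p = 0.00182). Dgat2, which completes triglyceride synthesis, fell in CP2 versus P1 (2.52 ± 0.977 CPM in CP2 and 14.4 ± 4.85 CPM in P1, log2 -2.51 ± 0.33, adjusted p = 1.44e-04) and versus CP1, at -2.18 ± 0.33 (adjusted p = 6.51e-04). Acsl1 was higher in CP2 than in CP1 (92.5 ± 12.5 CPM in CP2 and 23.2 ± 2.26 CPM in CP1, log2 1.99 ± 0.26, adjusted p = 2.80e-04). Thrsp, a lipogenic spot protein, had 10.99, 1.46 and 0.648 CPM in CP1 tumours and 0.185, 0.936 and 0.402 CPM in P1 tumours. Its call in CP1 (adjusted p = 0.0380) stands beside a single high tumour, CP1 replicate 1, which also held the most adipocyte transcripts, while CP1 replicate 3 overlapped P1. Scd3 fell in CP1 versus P1 at low levels, 0.335 ± 0.184 CPM in CP1 and 1.02 ± 0.231 CPM in P1, log2 -1.62 ± 0.45, adjusted p = 0.0136.

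Of 6 genes of SREBP processing and turnover, 3 were higher and 0 lower in CP1 than in P1, 1 and 1 in CP2 than in P1, and 1 and 3 in CP2 than in CP1. Over all genes 44.8%, 56.7% and 43.3% were called in either direction. Insig2, a relative of Insig1, and Rnf139 rose in CP1 versus P1, at log2 0.74 ± 0.13 and 0.40 ± 0.10 (adjusted p = 0.00113 and 0.0103). Mbtps1, the protease that makes the initial cut in SREBPs, rose in CP2 (362 ± 26.4 CPM in CP2 and 169 ± 28.2 CPM in P1, log2 1.10 ± 0.12, adjusted p = 4.81e-05) and in CP1, at 0.35 ± 0.13 (adjusted p = 0.0479). Fbxw7, which marks nuclear SREBPs for degradation, fell in CP2 versus P1, at -0.37 ± 0.08 (adjusted p = 0.00406). Insig2 and Rnf139 were lower in CP2 than in CP1, at -0.62 ± 0.12 and -0.45 ± 0.10 (adjusted p = 0.00250 and 0.00436). Of 11 liver X receptor genes and targets, 2 were higher and 4 lower in CP1 than in P1, 1 and 1 in CP2 than in P1, and 2 and 1 in CP2 than in CP1. The 2 of 11 called in CP2 versus P1 lay below the 56.7% called over all genes. Pltp, a phospholipid transfer protein, rose in CP1 (411 ± 90.3 CPM in CP1 and 38.0 ± 2.52 CPM in P1, log2 3.43 ± 0.17, adjusted p = 7.62e-07) and was lower in CP2 than in CP1, at -3.49 ± 0.15 (adjusted p = 1.04e-06). Nr1h3, a liver X receptor, fell in CP1 (4.13 ± 1.72 CPM in CP1 and 16.4 ± 3.31 CPM in P1, log2 -1.99 ± 0.31, adjusted p = 5.05e-04), and Smpdl3a fell in CP1, at -1.92 ± 0.25, and in CP2, at -2.55 ± 0.23 (adjusted p = 1.87e-04 and 1.40e-05). Nr1h3 and Abca2 were higher in CP2 than in CP1, at 1.56 ± 0.29 and 1.05 ± 0.16 (adjusted p = 0.00197 and 5.81e-04). Mylip, a ligase that degrades lipoprotein receptors, rose in CP1, at 1.20 ± 0.18, and in CP2, at 1.28 ± 0.17 (adjusted p = 4.46e-04 and 1.60e-04).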

How the data were processed

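RNA from 10 tumours was sequenced, and the authors deposited raw read counts per Ensembl gene, a table per tumour. The submitters' processing notes name the build GRCm38.p3, HTSeq 0.6.0, TopHat2 2.1.0, Bowtie2 2.2.6.0, FastQC 0.11.4, DESeq2 1.14.1 and R 3.2.3, with no roles, and neither they nor the labels state a strand setting. Of 47069 IDs, 46574 were matched to a symbol in GENCODE M21 (GRCm38) and 495 were not.

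Genes with low counts were removed with edgeR 4.0.16 (minimum count 10, minimum total 15) in R 4.3.3, leaving 17644, which were scaled by TMM and fitted over all 10 tumours with the quasi-likelihood test. Adjusted p is Benjamini-Hochberg over all genes tested, called below 0.05, and the SE was taken as the absolute log2 fold change over the root of F. The test was run on simulated counts in which far fewer genes changed than were called here, alike in both CP lines. That run does not check scaling under changes as wide as these. Alternatives were DESeq2 1.42.0, its size factors, no filter, robust dispersion, pairs of lines alone, library sizes without secretory genes and tumours left out.

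Every one of the 32 genes is named. Of further pathway lists, up to 2 called genes per list, direction and comparison with the largest change could be named. Members and lists were chosen with earlier results of these data known. Part of the genotypes and some further genes are not reported here.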

Additional observations from a re-analysis of the deposited data

Results flagged for a closer look

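With CP2 the one line of 4 tumours, 32 groups of 4 values were examined for a tumour far from the rest, and chance flags about 1 in 20 such groups. In CP2, replicate 3 stood apart as the highest tumour for Mvk (29.3 CPM), Tm7sf2 (13.3 CPM) and Sc5d (25.6 CPM), and replicate 4 as the lowest for Scd1 (277 CPM).

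For 10 genes the effects of CP2 and of CP1, each against P1, had opposite fitted signs and differed by the test of CP2 versus CP1. None of the 10 was called against P1 in both lines. The CP1 effect was near 0 for Fdft1 (0.03 ± 0.30, adjusted p = 0.953) and Sc5d (0.03 ± 0.19, adjusted p = 0.905). The share of all genes with this pattern was not counted. The difference, CP2 effect minus CP1 effect on the log2 scale, was -2.39 for Sqle, -1.45 for Idi1, -1.40 for Fdps, -1.32 for Cyp51, -1.21 for Sc5d, -1.10 for Fdft1, -1.05 for Nsdhl, -0.85 for Srebf2 and -0.61 for Mvk. It was 0.72 for Abca1, the one gene of the 10 with the higher effect in CP2.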

How the results depend on the processing

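Counts of calls under DESeq2, its size factors, no filter on low counts, robust dispersion and library sizes without secretory genes stayed within 1.5 times those reported. Leaving out 1 tumour at a time gave 11 to 21 of the 32 genes called in CP1 versus P1 (17 with all tumours), with 2 to 8 sterol genes higher and 0 to 1 fatty acid genes lower. In CP2 versus P1 it gave 0 to 1 sterol genes higher and 4 to 10 lower, and in CP2 versus CP1 1 to 3 fatty acid genes lower. The fitted Acly difference in CP1 versus P1, not called with all tumours, ranged over -0.21 to 0.18. With only the 2 lines compared in the fit, 2 sterol genes were higher in CP1 and 1 in CP2 than in P1. With P1 replicates 1 and 2 both left out, 9 genes were called in CP1 versus P1, 1 sterol gene was higher, Acly reversed to 0.31, and 0 fatty acid genes were lower in CP2. With CP1 replicates 2 and 3 both left out, 8 genes were called in CP1 versus P1, with 1 sterol gene higher and 1 lower, and 1 sterol gene was higher in CP2 than in P1. In CP2 versus CP1 that setting left 5 genes called, 3 sterol and 0 fatty acid genes lower, and Hmgcs1 reversed to 0.50 (adjusted p = 0.175). These settings leave fewer tumours, and further causes were not tested. No paired analysis was possible because the labels number no replicates, and the numbers used here follow accession order. Without CP2 replicate 1, whose title names CP1, 12 genes were called in CP2 versus P1 and 14 in CP2 versus CP1. Library totals were lowest in CP2, which limits its precision at low counts, though the least-read of the 32 genes had 177 counts or more in every CP2 library.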
